A study of Mus musculus with 18 samples.

Results

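Semaphorins, plexins and neuropilins were followed by RNA sequencing in cultured normal fibroblasts (NFs) of the mouse mammary gland. Members were the rows of the gene counts table with the symbol of a semaphorin of class 3 to 7, a plexin or a neuropilin. Of 55486 genes in the table, 31 met this rule, which were 20 semaphorins, 9 plexins and 2 neuropilins. The family was chosen by its gene names, but with the fall of Plxna4 from control medium to tumor CM in CD26+ NFs already known, so every comparison of Plxna4 between media or cell types that involves CD26+ NFs is given as a description without a test and is left out of the counts.

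The NFs came from FVB/n mice and were sorted as CD26- NFs or CD26+ NFs. Dpp4 encodes CD26, a peptidase of the cell surface. Cells negative for the epithelial markers EpCAM and CD49f, the leukocyte marker CD45 and the endothelial marker CD31 were pooled from several female mice and cultured. They then spent 7 days in control conditioned medium or in tumor conditioned medium (tumor CM). Control libraries numbered 3 and tumor CM libraries 6 for each cell type, 18 in all. Tumor CM came from 6 cell lines of tumors of a mouse model of invasive lobular carcinoma, in which WapCre, a Cre driven by the promoter of a milk protein, acts on floxed alleles, among them Cdh1 F/F, and removes E-cadherin from mammary epithelium. Each line gave its CM to 1 culture of CD26- NFs and 1 culture of CD26+ NFs, which makes the lines a source of spread among tumor CM replicates. Whether the cultures of a group came from separate sorts is not given in the labels, and p-values measure the spread between these libraries only.

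Semaphorins are guidance proteins that were first studied in growing axons and also act on the movement, adhesion and cytoskeleton of many other cells. Class 3 semaphorins are secreted, classes 4 to 6 span the membrane, and Sema7a is held at the surface by a lipid anchor. Plexins are their receptors, and most class 3 semaphorins also need a neuropilin, Nrp1 or Nrp2, as the part of the receptor that binds them, while Sema3e binds Plxnd1 directly. Neuropilins are also co-receptors of vascular endothelial growth factors.

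Total counts per library ran from 9725723 to 14585349. All 10 fibroblast markers, among them Col1a1 and Pdgfrb, were found in every group. Markers of epithelium were found too: the summed level of 10 of them was 4240 to 4720 CPM (read counts scaled to the library total after TMM scaling) in CD26- control libraries and 2720 to 4450 CPM in CD26- tumor CM libraries. In CD26+ NFs that sum was 693 to 1260 CPM in control medium and 638 to 1530 CPM in tumor CM. None of the 10 was at 0 in a group, and Cdh1, which encodes E-cadherin, averaged 458 CPM in CD26- controls and 82.4 CPM in CD26+ controls. Most endothelial and immune markers were low, with Pecam1 at 17 counts at most and Ptprc at 3 counts at most in a library. The exceptions were Csf1r of the immune list, at means of 17.5 to 21.7 CPM in the 4 groups, and to a lesser degree Cdh5 of the endothelial list and Cd68 of the immune list, at 64 and 48 counts at most in a library. Dpp4 gave no check of the sort in control medium, where it reached 2 counts at most in CD26- NFs and 1 count at most in CD26+ NFs, while in tumor CM it averaged 0.371 CPM in CD26- NFs and 3.54 CPM in CD26+ NFs. In bulk RNA, fewer cells of a type and less RNA per cell cannot be told apart.

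Promoter sequences are shown for 4 members whose level in tumor CM, described further on, differed by the line that gave the CM. Sema3a and Sema7a were highest with CM of one trio of lines, and Sema3g and Plxnc1 with CM of the other trio. Each stretch holds the 250 bases before the RefSeq start of the gene in GRCm38.p6, read 5′ to 3′ on the strand of the gene, and capitals mark a GC box (GGGCGG, on either strand). Sema3a lies at chr5:13396534-13396783 on the plus strand, Sema7a at chr9:57939862-57940111 on the plus strand, Sema3g at chr14:31217623-31217872 on the plus strand and Plxnc1 at chr10:94944846-94945095 on the minus strand. The Sema3a start lies inside the gene of the counts table, which begins at 13125414 and ends at 13602565, and the last bases before the Sema3g start lie in the first exon of the table's gene, which begins at 31217860.
Sema3a: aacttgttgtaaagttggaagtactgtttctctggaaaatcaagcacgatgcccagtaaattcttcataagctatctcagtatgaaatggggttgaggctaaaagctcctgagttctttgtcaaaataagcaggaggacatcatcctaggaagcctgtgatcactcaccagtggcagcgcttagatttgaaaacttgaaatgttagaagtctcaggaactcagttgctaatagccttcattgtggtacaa
Sema7a: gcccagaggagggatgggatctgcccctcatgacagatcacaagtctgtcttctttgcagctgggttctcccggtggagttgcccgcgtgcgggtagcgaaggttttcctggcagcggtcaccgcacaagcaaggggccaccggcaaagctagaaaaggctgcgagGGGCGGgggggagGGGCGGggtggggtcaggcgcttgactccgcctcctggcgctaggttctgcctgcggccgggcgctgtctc
Sema3g: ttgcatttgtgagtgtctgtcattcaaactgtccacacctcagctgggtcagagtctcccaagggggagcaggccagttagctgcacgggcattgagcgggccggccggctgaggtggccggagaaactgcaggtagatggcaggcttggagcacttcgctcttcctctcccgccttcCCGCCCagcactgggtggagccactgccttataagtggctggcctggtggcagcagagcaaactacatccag
Plxnc1: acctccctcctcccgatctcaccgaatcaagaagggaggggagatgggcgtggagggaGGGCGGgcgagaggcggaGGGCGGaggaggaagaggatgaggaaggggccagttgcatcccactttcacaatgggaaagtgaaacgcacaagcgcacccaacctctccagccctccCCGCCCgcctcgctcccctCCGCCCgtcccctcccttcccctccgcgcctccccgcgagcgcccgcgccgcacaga

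The Sema3a stretch held no GC box and had a GC content of 40.8%, below the median of 52.4% over all RefSeq promoter windows of this length. Sema7a held 2 GC boxes at 66.4% GC, Sema3g held 1 at 60.4% and Plxnc1 held 4 at 68.8%. A window was given for 26 of the 31 members, 37 windows in all, and 73% of these held a GC box, against 32.7% of 32851 windows of all genes. The AP-1 motif TGANTCA stood in 8.11% of member windows and 6.75% of all windows, the half-site TGACG in 2.7% and 17.8%, the E-box CACGTG in 5.41% and 6.02%, and the NF-kB consensus in 5.41% and 3.9%. The TATA box letters TATAAA stood in 0 of the 37 member windows and in 12.4% of all windows. Both strands were searched, and these are matches of letters only.

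The receptors Plxnb2 and Plxna1 and the ligand Sema7a were among the top 4 members by level in all groups. Levels are compared between genes as CPM per kb of exon. In CD26- controls the order was Plxnb2 (50.5 ± 3.19 CPM per kb, SD, n = 3), Sema7a (39.4 ± 1.35), the receptor Plxna1 (32.3 ± 3.63) and Nrp1 (22.8 ± 1.34), and the libraries of neighbours in this order did not overlap. Plxnb2 is a receptor for class 4 semaphorins. In CD26+ controls the order was Plxnb2 (48.1 ± 0.121 CPM per kb, SD, n = 3), Plxna1 (35.9 ± 2.65), Nrp1 (22.9 ± 1.03) and Sema7a (22.7 ± 1.95), and the last of these did not differ from Nrp1 beyond the spread. Tumor CM brought Plxna1 to the first place in CD26+ NFs at 54.8 ± 8.88 CPM per kb (SD, n = 6), with libraries that overlapped those of Plxnb2 at 43.8 ± 1.9. In CD26- NFs in tumor CM, Plxnb2 (50.8 ± 2.35 CPM per kb), Sema7a (48.0 ± 12.1) and Plxna1 (41.4 ± 3.64) followed each other with overlapping libraries. Plxnb3 and Sema5b were too low to test: Plxnb3 reached 3 counts at most in a library and Sema5b 16.

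**Figure D1:**
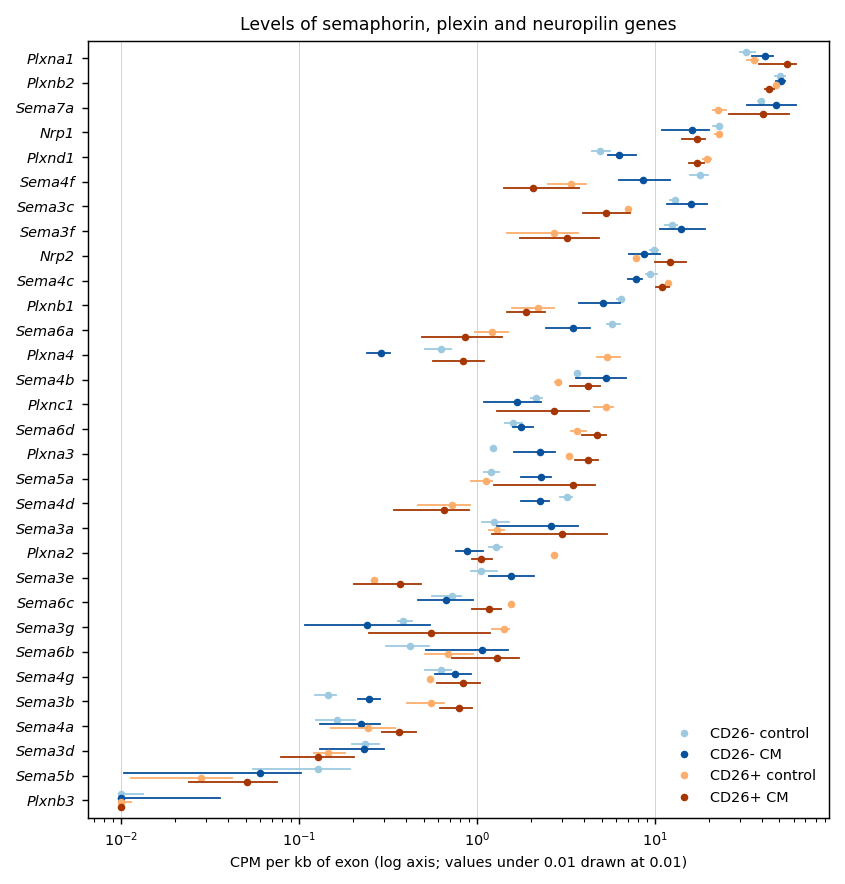
Level of each of the 31 members in CPM per kb of exon (log axis) in the 4 groups; points are means and lines run from the lowest to the highest library (n = 3 for controls, n = 6 for tumor CM), with values under 0.01 drawn at 0.01. Plxnb2 and Plxna1 are among the top 3 members in all groups, and Plxnb3 lies at the bottom with 3 counts at most in a library.

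The first question was which members respond to tumor CM in each cell type. In CD26- NFs, 11 of 29 tested members (37.9%) passed an FDR of 0.05 (Benjamini-Hochberg adjusted p of the edgeR quasi-likelihood test over 14273 genes), against 15.2% of all genes tested. Of these, 5 were higher in tumor CM and 6 lower (7.88% and 7.28% of all genes). In CD26+ NFs, 14 of 28 members (50%) passed, against 28.6% of all genes, with 10 higher and 4 lower (15.2% and 13.4% of all genes). The median log2 fold change of the members was 0.13 in CD26- NFs and 0.07 in CD26+ NFs, and that of all genes was 0.01 and 0.00. None of the members counted reached a log2 fold change over 2 or under -2 in either cell type, a size that 0.904% and 2.01% of all genes passed. Leaving out CD26- control replicate 1, 2 or 3 brought the first count to 6, 7 and 5 and the share of all genes to 7.57%, 9.64% and 5.69%. Leaving out CD26+ control replicate 12 brought the second count to 9 and the share of all genes to 20.4%. Other marker lists moved with tumor CM too. In CD26+ NFs the fibroblast markers summed to 62500 to 79500 CPM in controls and 29200 to 52100 CPM in tumor CM, with 3 of 10 higher and 5 lower. The Schwann cell and neural markers of CD26+ NFs summed to 40.7 to 44.6 and 12.3 to 20 CPM, most of it Tubb3 (means 40.1 and 12.7 CPM). In CD26- NFs 4 of the 10 fibroblast markers were higher and 2 lower. The pericyte markers of CD26- NFs summed to 145 to 163 CPM in controls and 47.4 to 93.1 CPM in tumor CM, and 2 of 4 tested fell. The Schwann cell and neural sum of CD26- NFs went from 13.1 to 16.7 CPM to 7.44 to 11 CPM. Most of it was Tubb3 (means 11.4 and 5.17 CPM), and of 4 tested markers 1 was higher and 1 lower. Of the skeletal muscle markers 3 of 4 tested were higher in CD26- NFs in tumor CM, among them Myog at means of 0.179 and 5.36 CPM, and 0 of 4 passed in CD26+ NFs with edgeR (0 at an unadjusted p under 0.05 and 0 with DESeq2). The muscle sum of CD26- NFs overlapped between media, at 48.6 to 75.7 and 41.7 to 82.9 CPM. Most of that sum was Acta1 (means 63 and 48.5 CPM). The part of these lists in the CM effects was not tested.

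Among the class A plexins, the signalling partners of neuropilins, Plxna4 and Plxna2 fell and Plxna1 and Plxna3 rose. Plxna4 stood at 66.5, 89.3 and 72.5 CPM in CD26+ controls and at 8.01 to 15.5 CPM (median 12.1) in CD26+ NFs in tumor CM. Every CD26+ library in tumor CM was far below every control. The group means were 76.1 ± 11.8 CPM in the 3 controls and 11.7 ± 2.83 CPM in the 6 tumor CM libraries (± SD), and the fold change fell by 2.70 on the log2 scale, the value for which the family was chosen. In CD26- NFs, where Plxna4 was not part of the choice, it stood at 7.16, 9.99 and 9.34 CPM in controls and 3.38 to 4.58 CPM (median 4.11) in tumor CM. These groups did not overlap either, and the log2 fold change was -1.12 ± 0.19 (SE, FDR 0.0012).

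Plxna2 stood at 46.3, 47.3 and 45.0 CPM in CD26+ controls and at 16.1 to 21 CPM (median 17.9) in tumor CM, a log2 fold change of -1.36 ± 0.1 (FDR 1.02e-07). In CD26- NFs it went from 19.9, 23.7 and 21.9 CPM to 13.0 to 18.6 CPM (median 14.9), a log2 fold change of -0.54 ± 0.1 (FDR 0.00262). Control and tumor CM libraries did not overlap in either cell type, and tumor CM left CD26+ NFs near the control level of CD26- NFs. Plxna1 rose in CD26+ NFs from 297, 342 and 335 CPM to 347 to 559 CPM (median 519), with a log2 fold change of 0.61 ± 0.12 (FDR 0.0014). The lowest of its tumor CM libraries, replicate 18 with CM of line 13-MCB-138, lay just above the highest control. In CD26- NFs the Plxna1 value was 0.36 ± 0.12 (FDR 0.054, and 0.0432 with DESeq2). Plxna3 was higher in all 6 tumor CM libraries of both cell types. It went from 9.87, 9.57 and 9.61 CPM to 12.7 to 21.7 CPM (median 18.7) in CD26- NFs (log2 0.88 ± 0.14, FDR 0.000661) and from 26.6, 25.3 and 25.8 CPM to 27.8 to 37.4 CPM (median 33.8) in CD26+ NFs (log2 0.36 ± 0.12, FDR 0.0354). The call in CD26+ NFs was lost without CD26+ replicate 10, 11, 12, 13, 14 or 17 (FDR 0.0681 to 0.127) and with upper-quartile scaling (FDR 0.0555).

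Among the other plexins, Plxnc1 passed the test in CD26+ NFs and Plxnd1 in CD26- NFs. Plxnc1, a receptor of Sema7a, fell in CD26+ NFs from 37.7, 48.4 and 46.3 CPM to 10.8 to 35.7 CPM (median 21.5), a log2 fold change of -0.98 ± 0.26 (FDR 0.00988) with no overlap between the groups. In CD26- NFs its value was -0.35 ± 0.29 (FDR 0.453), and the difference in CM effect between the cell types did not pass (-0.64 ± 0.4, FDR 0.342). That difference did pass with the CM line as a replicate block (FDR 0.0151). Plxnd1, the Sema3e receptor, had a log2 fold change of 0.35 ± 0.11 in CD26- NFs (FDR 0.0313), with libraries that overlapped the controls, and of -0.19 ± 0.1 in CD26+ NFs (FDR 0.151). Without CD26- control replicate 1 or 3 or tumor CM replicate 6 the first of these Plxnd1 values had an FDR of 0.135, 0.137 and 0.0597. Plxnb1 and Plxnb2, the receptors of Sema4d and Sema4c, did not pass the test in either cell type. Plxnb2 came near it in CD26+ NFs, where all tumor CM libraries (320 to 361 CPM) lay below all controls (371 to 372 CPM) with a log2 value of -0.14 ± 0.05 (FDR 0.0515). It was called with DESeq2 (FDR 0.0324), with upper-quartile scaling (FDR 0.0182), with only the CD26+ groups in the fit (FDR 0.0478) and without any of 6 single libraries. The values of both lay between -0.34 ± 0.17 (Plxnb1 in CD26- NFs) and 0.01 ± 0.05 (Plxnb2 in CD26- NFs).

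The neuropilins parted. Nrp1, the Sema3a-binding neuropilin, stood at 208, 232 and 228 CPM in CD26- controls and 107 to 196 CPM (median 160) in tumor CM, and at 213, 233 and 225 CPM in CD26+ controls and 138 to 188 CPM (median 169) in tumor CM. All tumor CM libraries lay below all controls in both cell types, with log2 fold changes of -0.5 ± 0.13 (FDR 0.0133) and -0.41 ± 0.13 (FDR 0.0204). Leaving out a single control ended these calls: the FDR was 0.0546 and 0.0649 without CD26- control replicate 2 or 3, and 0.0697 and 0.0562 without CD26+ control replicate 11 or 12. Nrp2, which binds Sema3f, rose in CD26+ NFs from 90.2, 90.7 and 95.9 CPM to 118 to 178 CPM (median 141), a log2 fold change of 0.65 ± 0.12 (FDR 0.000783). In CD26- NFs its controls stood at 111, 116 and 124 CPM and its tumor CM libraries at 85.0 to 127 CPM (median 103), which overlapped, with a value of -0.18 ± 0.12 (FDR 0.314).

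**Figure D2:**
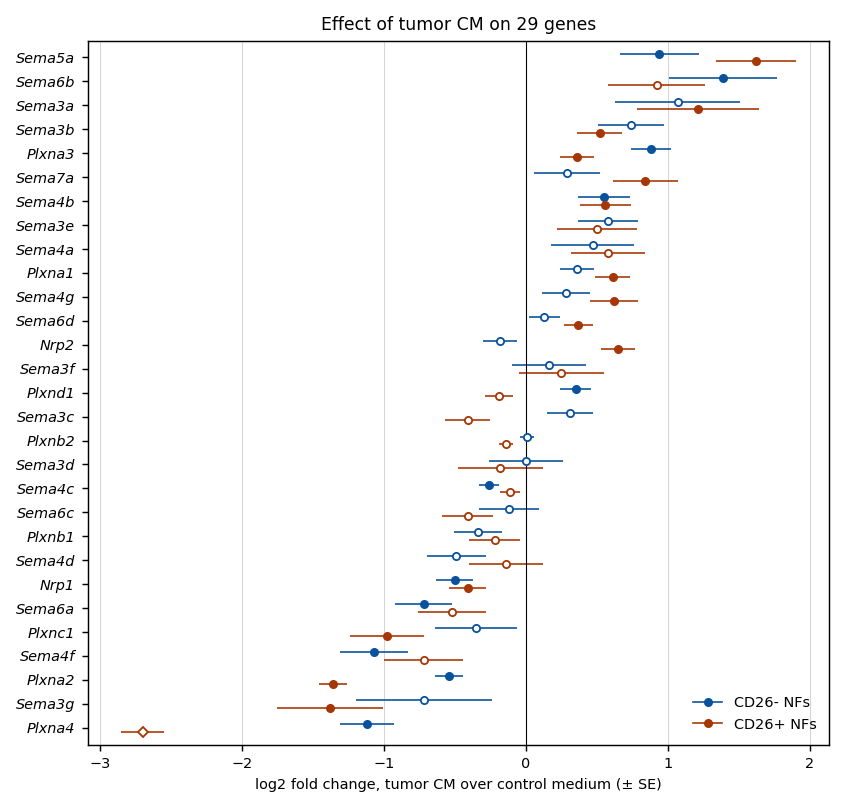
Log2 fold change of tumor CM over control medium (± SE) for the 29 tested members in CD26- NFs (n = 3 and 6) and CD26+ NFs (n = 3 and 6); filled circles passed the FDR of 0.05, open circles did not, and the open diamond is Plxna4 in CD26+ NFs, which was not tested. Sema5a (1.62) and Sema3a (1.21) lie at the right end and Plxna2 (-1.36) and Sema3g (-1.38) at the left end among tested values of CD26+ NFs.

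Of the class 3 semaphorins, the secreted ligands of neuropilins, 3 of 7 passed in CD26+ NFs, beside 28.6% of all genes, with Sema3a and Sema3b higher and Sema3g lower. In CD26- NFs 0 of 7 passed with edgeR, beside 15.2% of all genes, and 3 had an unadjusted p under 0.05. With DESeq2 every class 3 member kept its side of the threshold in CD26- NFs, so the count was 0 there too. Other alternatives did call members in CD26- NFs. These were Sema3f with the epithelial markers as a covariate (FDR 0.0161) and Sema3a with only the CD26- groups in the fit (FDR 0.0422). Sema3e was called without tumor CM replicate 9 or 18. In CD26+ NFs the covariate fit also called Sema3c and Sema3f. Sema3a, the classic repellent of axons, stood at 18.1, 19.6 and 16.0 CPM in CD26+ controls and at 17.0 to 74.9 CPM (median 39.7) in tumor CM (log2 1.21 ± 0.43, FDR 0.0436). Its controls in CD26- NFs were at 21, 14.8 and 16.0 CPM and its tumor CM libraries at 17.9 to 50.9 CPM (median 38.1), a log2 value of 1.07 ± 0.44 (FDR 0.106). Replicates with CM of line 13-MCB-138 lay within the control range and all others above it. The call in CD26+ NFs ended in 12 of 24 alternatives, among them leaving out any of CD26+ replicates 10, 11, 12, 13, 14 or 17 (FDR 0.08 to 0.137). Sema3g was low throughout and fell in CD26+ NFs from 6.88, 6.89 and 5.49 CPM to 1.13 to 5.36 CPM (median 2.1), a log2 fold change of -1.38 ± 0.37 (FDR 0.00914). Its CD26+ groups came close but did not overlap, and in CD26- NFs, at 1.65, 1.62 and 1.96 CPM in controls and 0.491 to 2.48 CPM (median 0.813) in tumor CM, they did (log2 -0.72 ± 0.48, FDR 0.336). Sema3b had a log2 fold change of 0.52 ± 0.16 in CD26+ NFs (FDR 0.0217), which was not called without control replicate 12 (0.34, FDR 0.17) or with DESeq2 (0.53, FDR 0.0505). Sema3c, Sema3d, Sema3e and Sema3f lay between -0.41 ± 0.16 (Sema3c in CD26+ NFs, FDR 0.0683) and 0.58 ± 0.21 (Sema3e in CD26- NFs, FDR 0.0744).

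Among the membrane semaphorins, Sema5a rose in both cell types. Sema5a, whose extracellular part carries thrombospondin repeats, stood at 17.3, 22.6 and 22.8 CPM in CD26+ controls and at 23.1 to 86.0 CPM (median 69.1) in tumor CM. Replicate 18, with CM of line 13-MCB-138, lay at 23.1 CPM next to the controls, and the other 5 were at 57.1 CPM or more. The log2 fold change was 1.62 ± 0.28 (FDR 0.000427). In CD26- NFs Sema5a went from 20.4, 21.2 and 24.9 CPM to 33.2 to 48.4 CPM (median 43.2), again without overlap (log2 0.94 ± 0.28, FDR 0.0308). The CD26- call ended when CD26- replicate 1, 2, 3, 4, 5 or 8 was left out (FDR 0.0505 to 0.109).

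Sema4f and Sema6a, both transmembrane, were the semaphorins that fell in CD26- NFs beside a small fall of Sema4c. Sema4f went from 96.3, 105 and 83.5 CPM to 33.1 to 64.0 CPM (median 38.5), all below the controls (log2 -1.07 ± 0.24, FDR 0.00674). In CD26+ NFs Sema4f stood at 21.5, 13.2 and 18.9 CPM and at 7.52 to 19.8 CPM (median 9.48), a log2 value of -0.72 ± 0.28 (FDR 0.0635, and 0.0395 with DESeq2), and without tumor CM replicate 16 it was -0.99 (FDR 0.00458). Sema4f was called in CD26+ NFs with the epithelial markers as a covariate too. Sema6a, a ligand of Plxna2 and Plxna4, went in CD26- NFs from 47.1, 55.6 and 48.1 CPM to 21.3 to 37.8 CPM (median 29.6), with a log2 fold change of -0.72 ± 0.2 (FDR 0.0224). Leaving out CD26- control replicate 1, 2 or 3 raised that FDR to 0.0599, 0.0957 and 0.0735. In CD26+ NFs its value was -0.52 ± 0.24 (FDR 0.12). Over the same CD26- libraries the summed epithelial markers went from 4530 ± 255 CPM to 3470 ± 592 CPM, a log2 ratio of -0.39. Of the 10 epithelial markers 0 passed the FDR there with edgeR and 1 with DESeq2, and the libraries of the sum overlapped. With these markers as a covariate the values in CD26- NFs were -0.79 ± 0.17 for Sema4f (FDR 0.0068) and -0.54 for Sema6a (FDR 0.0632). The covariate is itself set largely by the cell type. Whether epithelial content had a part in these falls was not tested.

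Sema6b was low and rose in CD26- NFs from 2.13, 1.62 and 1.22 CPM to 2.03 to 5.92 CPM (median 4.94), with overlap at the lowest replicate (log2 1.39 ± 0.38, FDR 0.0212). Its FDR was 0.0671 and 0.13 without CD26- control replicate 2 or 3. In CD26+ NFs, at 2.02, 2.37 and 3.78 CPM in controls and 2.86 to 6.83 CPM (median 5.21) in tumor CM, the log2 value was 0.92 ± 0.34 (FDR 0.051, and 0.033 with DESeq2). Sema7a, the lipid-anchored semaphorin that binds Plxnc1 and beta 1 integrins, rose in CD26+ NFs from 70.1, 72.5 and 82.2 CPM to 86.1 to 186 CPM (median 138), above all controls (log2 0.84 ± 0.23, FDR 0.0123). That call was lost without CD26+ control replicate 10 or 11 (FDR 0.0553 and 0.0559). Sema7a controls in CD26- NFs stood at 129, 135 and 126 CPM and its tumor CM libraries spread on both sides of them, from 108 to 203 CPM (median 163), with a value of 0.29 ± 0.23 (FDR 0.421). Sema4b passed narrowly in both cell types (log2 0.55 ± 0.18, FDR 0.045 in CD26- NFs and 0.56 ± 0.18, FDR 0.0276 in CD26+ NFs). Its CD26- call was lost in 14 of 24 alternatives (FDR 0.0501 to 0.146), among them leaving out CD26- replicate 1, 2, 3, 4, 5, 6 or 8. Its CD26+ call was lost without CD26+ replicate 10, 11, 12, 13, 14 or 17 (FDR 0.0536 to 0.09). Sema4g (0.62 ± 0.17, FDR 0.0103) and Sema6d (0.37 ± 0.1, FDR 0.0127) were higher in CD26+ NFs. Sema6d was not called without control replicate 10 or 12 (FDR 0.0753 and 0.0683). Sema4a, Sema4d and Sema6c passed in neither cell type, with values from -0.49 ± 0.21 (Sema4d in CD26- NFs, FDR 0.114) to 0.58 ± 0.26 (Sema4a in CD26+ NFs, FDR 0.103).

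**Figure D3:**
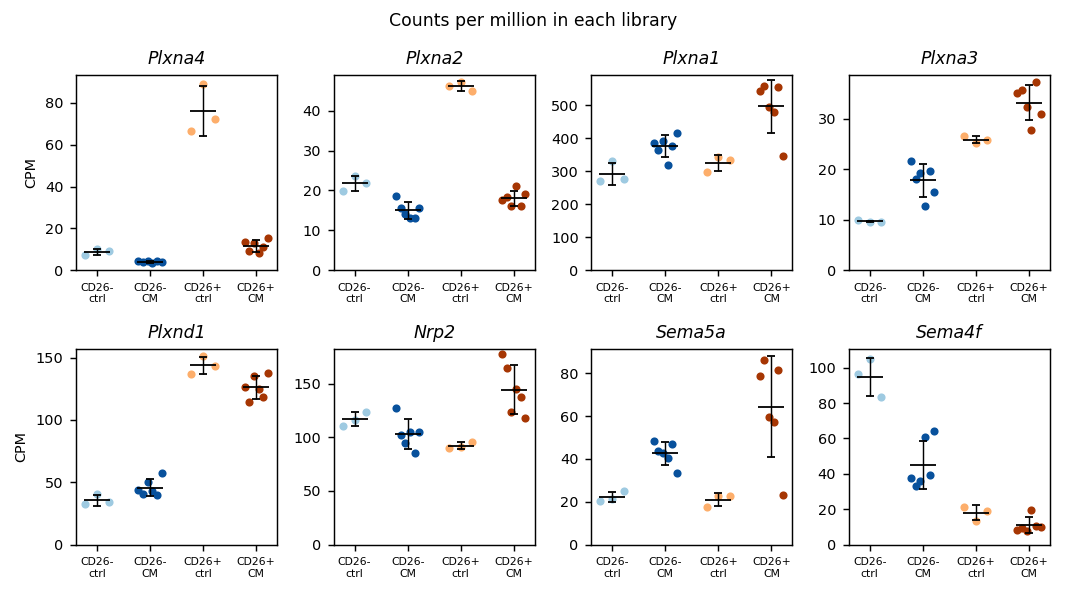
CPM of 8 members in each of the 18 libraries, by group (n = 3 for controls, n = 6 for tumor CM); each point is a library, and bars give the mean ± SD. Plxna4 and Plxna2 drop in CD26+ NFs from control medium (66.5 to 89.3 and 45.0 to 47.3 CPM) to tumor CM (8.01 to 15.5 and 16.1 to 21 CPM).

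The study compared both cell types in the same media, so whether the CM effect itself differs between them could be tested. The difference passed the FDR for 3 of 28 members (10.7%), against 7.53% of all genes (4.53% with the more positive effect in CD26+ NFs and 3.01% with the more negative). All 3 were receptor genes, and 0 of 19 semaphorins passed with edgeR, with 1 at an unadjusted p under 0.05, while DESeq2 also called Sema3c. The Nrp2 effect was more positive in CD26+ than in CD26- NFs, with a log2 difference of 0.83 ± 0.17 (FDR 0.00809). Plxna2 had the more negative effect in CD26+ NFs (-0.81 ± 0.15, FDR 0.00464), and so had Plxnd1 (-0.55 ± 0.14, FDR 0.0287). The FDR of Plxnd1 was 0.0567 to 0.0809 without CD26- control replicate 1 or 3, or without replicate 11 or 12 of the CD26+ controls. With the CM line as a replicate block the count rose to 7, by Plxna3, Plxnc1, Sema3c and Sema7a, while the share of all genes rose to 17.6%. Without CD26+ tumor CM replicate 18 it was 5, by Sema3c and Sema5a (0.85, FDR 0.00964), while 16.4% of all genes passed.

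Levels in tumor CM differed by line for part of the family. Over the 12 tumor CM libraries, with cell type as a term, the line passed the FDR for 6 of 29 members (20.7%), against 6.56% of 13344 genes tested. These were Sema7a (log2 span from the lowest to the highest line 0.98, FDR 0.00171), Sema3a (1.85, FDR 0.00405), Sema3g (2.27, FDR 0.00753), Plxnc1 (1.4, FDR 0.0168), Nrp1 (0.63, FDR 0.0359) and Sema6b (1.36, FDR 0.0407). On simulated counts the line test made a somewhat larger share of false calls than its FDR states. Nrp1 and Sema6b had the FDR values nearest to the threshold. The 6 members fell into a pair of patterns. CM of lines 13-MCB-17, 10-SJK-221 and 13-MCB-90 gave the top 3 levels of Sema3a, Sema7a and Sema6b in both cell types. CM of lines 13-MCB-138, 18-MCB-12 and 13-MCB-44 gave the top 3 levels of Sema3g, Plxnc1 and Nrp1 in both. The residual of this test is the disagreement of the lines between the cell types. Members that pass it are thus largely those with like orders in both, and the shared trios are no separate result.

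Sema3a in CD26- NFs stood at 50.9 CPM with CM of 10-SJK-221, 47.5 with 13-MCB-17, 44.5 with 13-MCB-90, 31.7 with 18-MCB-12, 23.1 with 13-MCB-44 and 17.9 with 13-MCB-138. In CD26+ NFs the same lines gave 74.9, 54.9, 56.5, 24.6, 20.8 and 17.0 CPM. Controls of both cell types lay between 14.8 and 21 CPM, so the lowest line stayed at the control level. Sema7a, in the same order of lines, was at 196, 203, 176, 150, 117 and 108 CPM in CD26- NFs and 186, 160, 161, 116, 94.9 and 86.1 CPM in CD26+ NFs. Lines 13-MCB-44 and 13-MCB-138 lay below the CD26- controls and the other 4 above them, while all 6 lay above the CD26+ controls.

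Sema3g had the same full order of lines in both cell types, a likeness that the line test selects for. From 13-MCB-138 over 18-MCB-12, 13-MCB-44, 13-MCB-17 and 13-MCB-90 to 10-SJK-221 it was 2.48, 1.39, 0.826, 0.801, 0.543 and 0.491 CPM in CD26- NFs and 5.36, 2.62, 2.22, 1.97, 1.6 and 1.13 CPM in CD26+ NFs. The level with CM of 13-MCB-138 was above all CD26- controls and just below the CD26+ controls. Plxnc1, in that order of lines, stood at 19.2, 17.8, 14.9, 9.21, 12.0 and 10.9 CPM in CD26- NFs and 35.7, 22.6, 30.0, 10.8, 20.3 and 15.3 CPM in CD26+ NFs. Nrp1 was lowest with CM of 13-MCB-17 in both cell types (107 and 138 CPM), and without this line its span was 0.23 (FDR 0.248). Its call was also lost without 10-SJK-221, 18-MCB-12, 13-MCB-44 or 13-MCB-90 (FDR 0.0514 to 0.0692) and held only without 13-MCB-138. The ligand Sema7a and its receptor Plxnc1 thus had different trios of lines at the top, as did Sema3a and Nrp1. With 1 library for each line and cell type, whether the order of lines differs between the cell types could not be tested. The count of members was 3 without line 13-MCB-17 and 9 without line 13-MCB-138, where 4.04% and 10.6% of all genes passed. Plxnc1 lost its call without 13-MCB-17 (FDR 0.0519) and Sema3g without 13-MCB-138 (FDR 0.0901). Sema6b lost its call without 13-MCB-17, 10-SJK-221, 13-MCB-90 or 13-MCB-138 (FDR 0.0761, 0.0676, 0.0686 and 0.123). Sema3a and Sema7a kept theirs without any single line.

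**Figure D4:**
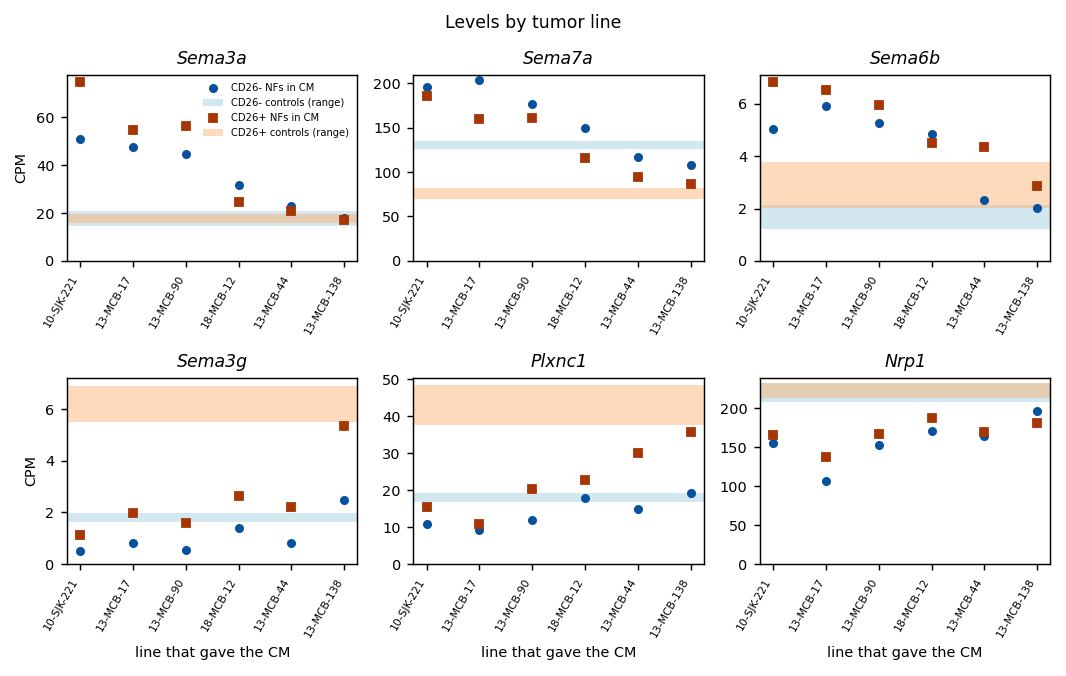
CPM of the 6 members that differed by line, against the line that gave the CM, in CD26- NFs (circles) and CD26+ NFs (squares), with 1 library per point; bands give the range of the 3 control libraries of each cell type. Sema3a, Sema7a and Sema6b are highest on the left, with CM of 10-SJK-221, 13-MCB-17 and 13-MCB-90, and Sema3g, Plxnc1 and Nrp1 are higher on the right.

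CD26+ and CD26- NFs differed in most members before any tumor CM was given. In control medium 18 of 28 members (64.3%) passed the FDR, against 50.3% of all genes, with 9 at a higher and 9 at a lower level in CD26+ NFs (25% and 25.4% of all genes). In tumor CM 23 of 28 (82.1%) passed, against 58.6% of all genes, with 13 higher and 10 lower (29.3% of all genes in each direction). A log2 fold change over 2 or under -2 beside the FDR was met by 5 members in control medium, where 5.97% of genes met it, and by 4 in tumor CM, where 4.16% did. Among the 7 plexins counted, CD26+ NFs had the higher level of 4 and the lower level of 1 in control medium, and of 5 and 2 in tumor CM.

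Plxnd1 showed the firmest difference. It stood at 32.3, 40.7 and 34.0 CPM in CD26- controls and 137, 151 and 143 CPM in CD26+ controls, a log2 fold change of 2.01 ± 0.12 (FDR 2.75e-09). In tumor CM the ranges were 39.7 to 57.2 CPM (median 43.3) and 114 to 138 CPM (median 125), a log2 fold change of 1.46 ± 0.08 (FDR 4.9e-10). The cell types did not overlap in either medium. Plxna4, described without a test, stood at 7.16 to 9.99 CPM in CD26- controls against 66.5 to 89.3 CPM in CD26+ controls, and in tumor CM the means of 4.07 ± 0.485 and 11.7 ± 2.83 CPM (SD, n = 6) were nearer to each other. Plxna3 and Plxna2 were higher in CD26+ controls by 1.42 ± 0.15 (FDR 8.36e-07) and 1.08 ± 0.12 (FDR 8.99e-07). In tumor CM the Plxna2 value was 0.26 ± 0.09 (FDR 0.0145).

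The semaphorins split by gene. Higher in CD26+ NFs were Sema3b, Sema3g and Sema6d. Sema3b stood at 0.581, 0.769 and 0.744 CPM in CD26- controls and at 2.83, 3.11 and 1.93 CPM in CD26+ controls (log2 1.88 ± 0.23, FDR 3.8e-06). In tumor CM it was 1.02 to 1.36 CPM (median 1.18) and 2.95 to 4.47 CPM (median 3.69), a value of 1.67 ± 0.15 (FDR 4.08e-08). The groups lay apart in both media, at no more than 59 counts in a library. Sema6d, a Plxna1 ligand, went from 15.1, 16.8 and 18.7 CPM in CD26- controls to 35.4, 43.2 and 36.4 CPM in CD26+ controls (log2 1.18 ± 0.13, FDR 7.85e-07). In tumor CM the gap was 1.41 ± 0.09 (FDR 1.19e-09), from 16.9 to 21.9 CPM (median 18.2) to 40.7 to 56.3 CPM (median 50.9). Sema3g was higher by 1.86 ± 0.46 in control medium (FDR 0.00271) and by 1.2 ± 0.38 in tumor CM (FDR 0.0122), where the libraries overlapped. Both Sema3g calls were lost with the epithelial covariate described further on (FDR 0.468 and 0.686).

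Lower in CD26+ NFs were Sema4f, Sema6a, Sema3f and Sema4d, together with Sema3e. Sema4f was at 96.3, 105 and 83.5 CPM in CD26- controls and 21.5, 13.2 and 18.9 CPM in CD26+ controls, a log2 fold change of -2.41 ± 0.31 (FDR 5e-06). Sema3f, the Nrp2 ligand, was at 69.2, 66.0 and 58.8 CPM against 19.2, 7.7 and 15.1 CPM (log2 -2.21 ± 0.33, FDR 2.57e-05). Sema6a was at 47.1, 55.6 and 48.1 CPM against 10.5, 8.59 and 13.1 CPM (log2 -2.23 ± 0.26, FDR 1.86e-06). All lay apart, and CD26+ replicate 11 was the lowest control in each. Sema4d, the ligand of Plxnb1, was at 26.1, 24.9 and 22.4 CPM against 7.04, 3.56 and 5.94 CPM (log2 -2.15 ± 0.27, FDR 3.88e-06), and its receptor Plxnb1 was lower too, at 61.8, 63.5 and 59.0 CPM against 26.0, 15.2 and 21.7 CPM (log2 -1.55 ± 0.2, FDR 6.9e-06). In tumor CM Sema3f (-2.13 ± 0.23), Sema4f (-2.05 ± 0.23), Sema6a (-2.02 ± 0.19), Sema4d (-1.8 ± 0.19) and Plxnb1 (-1.43 ± 0.15) kept that direction with FDR values of 5.92e-07 or less. Sema3e, at 8.52, 12.0 and 8.66 CPM in CD26- controls and 2.51, 2.37 and 2.45 CPM in CD26+ controls, was lower by -1.99 ± 0.29 (FDR 1.77e-05), and in tumor CM, at 10.7 to 19.4 CPM (median 13.4) and 1.88 to 4.47 CPM (median 3.58), by -2.07 ± 0.19 (FDR 7.19e-08).

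For Nrp2 the values had opposite signs in the media. Its CD26+ controls (90.2, 90.7 and 95.9 CPM) all lay below its CD26- controls (111, 116 and 124 CPM), with a log2 fold change of -0.34 ± 0.14 (FDR 0.047). This call was lost in 16 of 24 alternatives (FDR 0.0503 to 0.654), among them leaving out any single control library. In tumor CM it was higher in CD26+ NFs by 0.49 ± 0.1 (FDR 0.000302), although the libraries overlapped, and with the epithelial covariate described further on the value was 0.58 (FDR 0.127). Nrp1 did not pass between the cell types in either medium (0.01 ± 0.15 and 0.09 ± 0.1). Of the other members, Plxnc1 (1.31 ± 0.32), Sema6c (1.11 ± 0.23) and Sema4c (0.32 ± 0.08) were higher in CD26+ controls and Sema3c (-0.86 ± 0.19) and Sema7a (-0.79 ± 0.26) lower, with FDR values between 0.000538 and 0.0178. The Sema7a call was lost without CD26+ control replicate 10 or 11 (FDR 0.0559 and 0.056). In tumor CM Sema3c was at 83.3 to 140 CPM (median 113) in CD26- NFs and 28.1 to 51.6 CPM (median 38.0) in CD26+ NFs, a gap of -1.58 ± 0.14 (FDR 3.7e-08) without overlap. Plxnc1 and Sema5a passed in tumor CM as well (0.68 ± 0.24, FDR 0.0197, and 0.6 ± 0.21, FDR 0.0213), but not without CD26+ replicate 16 or 18 for Plxnc1 (FDR 0.0531 and 0.0592) or CD26+ replicate 13, 14 or 17 for Sema5a (FDR 0.0504, 0.0595 and 0.055). Plxna1, Plxnb2, Sema3d, Sema4a and Sema4b passed in tumor CM with values from -0.85 ± 0.23 (Sema3d) to 0.68 ± 0.21 (Sema4a), and Sema3a, Sema4g and Sema6b passed in neither medium. The Sema4b value in tumor CM (-0.35, FDR 0.0412) was not called in 9 of 25 alternatives (FDR 0.056 to 0.524).

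Epithelial markers moved with these genes. The summed level of the 10 markers was 4.6 times as high in CD26- as in CD26+ controls and 3.65 times as high in tumor CM, log2 ratios of -2.2 and -1.87 for CD26+ over CD26- NFs, and 9 of the 10 were lower in CD26+ NFs in both media. Replicate 11 had the lowest epithelial sum of the CD26+ controls (693 CPM), and replicate 16 the highest of the CD26+ tumor CM libraries (1530 CPM), where Sema3f, Sema4f, Sema6a and Sema4d were also highest in the group. With the mean log2 level of the epithelial markers as a covariate the count of members was 5 in control medium and 6 in tumor CM, and the share of all genes fell to 6.66% and 8.89%. In that fit the values were -0.17 for Sema3f (FDR 0.794), -0.69 for Sema4f (FDR 0.331), -0.55 for Sema4d (FDR 0.368) and -1.1 for Sema6a (FDR 0.147) in control medium. Sema3c went from -0.86 to -0.05 (FDR 0.952) and Plxnb1 from -1.55 to -0.29 (FDR 0.454) there, while Plxnd1, Plxna2, Plxna3, Sema3b and Sema6d were called in control medium under every alternative. Sema3e and Plxnc1 lost their control medium calls in that fit (FDR 0.0993 and 0.256). Their values stayed at -1.67 or below and 1.25 or above under every alternative. In tumor CM the covariate fit lost the calls of Sema3f, Sema4f, Sema4d, Sema6a and Plxnb1 (FDR 0.0935 to 0.498) and kept those of Sema3c and Sema3e. The covariate is itself set largely by the cell type, and its part in the differences and that of the cell type cannot be told apart. The other marker lists differed as well: fibroblast markers summed to 16500 to 18500 CPM in CD26- controls and 62500 to 79500 CPM in CD26+ controls, pericyte markers to 145 to 163 and 41.6 to 60.9 CPM, Schwann cell and neural markers to 13.1 to 16.7 and 40.7 to 44.6 CPM, and skeletal muscle markers to 48.6 to 75.7 and 11.9 to 18.5 CPM. Acta1 made most of the muscle sums (means 63 and 15.1 CPM) and Tubb3 most of the neural sums (11.4 and 40.1 CPM). Of 4 tested pericyte markers 1 was higher in CD26+ controls and 3 were lower with edgeR. Of 4 neural markers 1 was higher and 1 lower. Of 4 muscle markers 1 was lower with edgeR, and DESeq2 called 3. The part of these lists in the results was not tested.

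**Figure D5:**
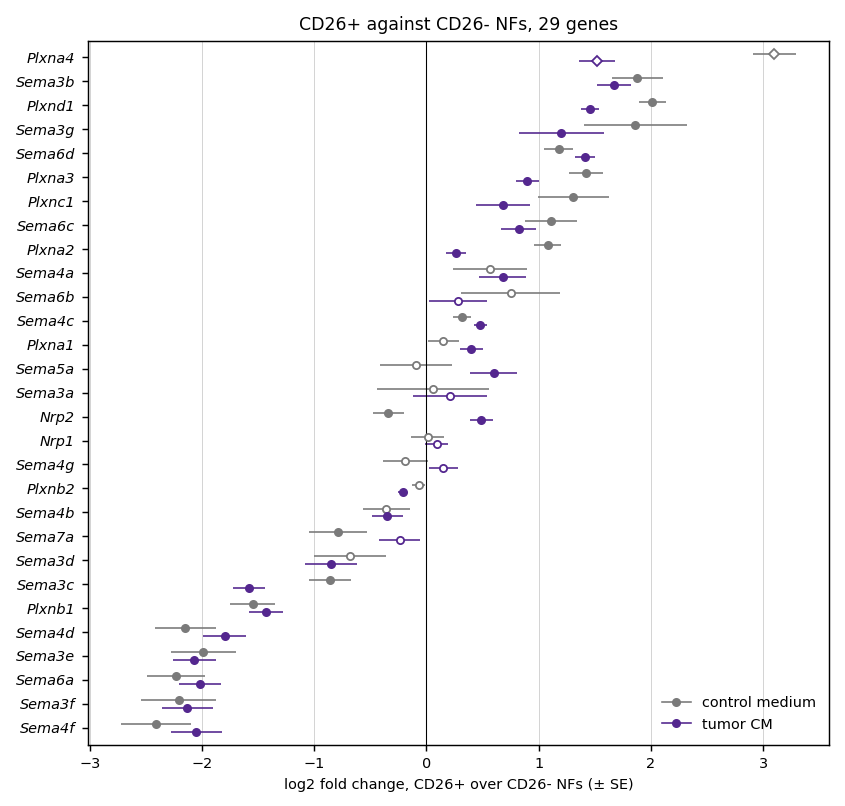
Log2 fold change of CD26+ over CD26- NFs (± SE) for the 29 tested members in control medium (n = 3 and 3) and in tumor CM (n = 6 and 6); filled circles passed the FDR of 0.05, open circles did not, and open diamonds mark Plxna4, which was not tested. Plxnd1 (2.01 and 1.46) and Sema3b (1.88 and 1.67) lie to the right in both media, and Sema4f, Sema6a, Sema3f and Sema4d lie to the left at -1.8 or below.

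Known ligands and receptors were set side by side, whatever their values. In CD26+ NFs the ligand Sema3a had a CM effect of 1.21 on the log2 scale beside its binding subunit Nrp1 at -0.41, Plxna1 at 0.61, Plxna2 at -1.36 and Plxna3 at 0.36. Sema7a was at 0.84 and its receptor Plxnc1 at -0.98, with the integrin subunit Itgb1 at -0.06 ± 0.07 (FDR 0.596). Sema6d and Plxna1 both rose (0.37 and 0.61, the first not called without control replicate 10 or 12), as did Sema5a and Plxna1 (1.62 and 0.61), while the other Sema5a receptor, Plxnb3, was too low to test. Sema6a stood at -0.52 (FDR 0.12) beside Plxna2 at -1.36. Sema3f at 0.25 ± 0.3 (FDR 0.58) stood beside Nrp2 at 0.65, Sema3c at -0.41 ± 0.16 (FDR 0.0683) beside Nrp1, Nrp2 and Plxnd1, and Sema3e at 0.5 ± 0.28 (FDR 0.196) beside Plxnd1 at -0.19 (FDR 0.151). Sema4c (-0.11 ± 0.07) and Sema4d (-0.14 ± 0.26) and their receptors Plxnb2 (-0.14 ± 0.05, FDR 0.0515) and Plxnb1 (-0.22 ± 0.18) did not pass the test. In CD26- NFs, Sema3a was at 1.07 (FDR 0.106) beside Nrp1 at -0.5, Plxna1 at 0.36 (FDR 0.054), Plxna2 at -0.54, Plxna3 at 0.88 and Plxna4 at -1.12. Sema6a at -0.72 fell together with its receptors Plxna2 and Plxna4. Sema7a was at 0.29 (FDR 0.421) and Plxnc1 at -0.35 (FDR 0.453). Sema5a at 0.94 (FDR 0.0308) and Sema6d at 0.13 (FDR 0.454) stood beside Plxna1. Sema4c fell by 0.26 ± 0.07 (FDR 0.0198, and 0.119 without control replicate 1) there, with its receptor Plxnb2 at 0.01. Sema4d at -0.49 (FDR 0.114) stood beside Plxnb1 at -0.34 (FDR 0.183). Sema3f was at 0.16 (FDR 0.719) and Nrp2 at -0.18 (FDR 0.314). Sema3c at 0.31 (FDR 0.209) and Sema3e at 0.58 (FDR 0.0744) stood beside Plxnd1 at 0.35 (FDR 0.0313).

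Other genes of the pathway were read from a list of 59 co-receptors, neuropilin-binding growth factors, semaphorin-processing enzymes and cytoplasmic relays, of which 55 were tested. In CD26- NFs 4 rose and 5 fell with tumor CM (16.4%), and in CD26+ NFs 14 rose and 10 fell (43.6%), read against 15.2% and 28.6% of all genes. In control medium, 11 had a higher and 19 a lower level in CD26+ than in CD26- NFs (54.5%), and with tumor CM 19 were higher and 18 lower (67.3%), read against 50.3% and 58.6%. Vegfa, a ligand of neuropilins, averaged 230 ± 12.0 CPM (SD) in the 3 CD26+ controls and 567 ± 121 CPM in the 6 tumor CM libraries, a rise of 1.3 ± 0.14 on the log2 scale (FDR 4.64e-06), and the difference in CM effect was 0.96 ± 0.19 (FDR 0.00656). Vegfb rose in CD26- NFs by 0.79 ± 0.18 (FDR 0.0087). The receptor kinase Mst1r, a partner of class B plexins, rose in both (1.08 ± 0.19, FDR 0.00161 in CD26- NFs and 1.83 ± 0.2, FDR 5.08e-06 in CD26+ NFs). Dpysl3, a member of the collapsin response mediators that act downstream of Sema3a, fell in CD26+ NFs from 702 ± 59.3 to 196 ± 65.5 CPM, a log2 fold change of -1.85 ± 0.18 (FDR 2e-06), with a difference in CM effect of -1.4 ± 0.27 (FDR 0.00627). Pak1, a kinase of the actin pathway, fell in CD26+ NFs by 0.43 ± 0.08 (FDR 0.00062), and in CD26- NFs the small GTPase Mras fell by 0.39 ± 0.08 (FDR 0.00506) and Itgb1 by 0.31 ± 0.07 (FDR 0.00791).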

How the data were processed

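Polyadenylated RNA of 18 libraries was sequenced single-end with a stranded kit. As deposited, the table gives raw counts for each Ensembl gene in GRCm38, made by the authors without normalization, and the submitters' processing notes name HISAT2 2.1.0 and HTSeq. The strand setting and annotation release are not given in the sources used here. One row names no gene and holds 0 counts. No library was left out, and no pair of replicates agreed within sampling noise (lowest chi-square per degree of freedom 3.1).

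Members and lists were chosen with earlier results of these data known. Genes were filtered with filterByExpr, scaled with TMM and tested by the quasi-likelihood F test (edgeR 4.0.16, R 4.3.3) in a single model of the 4 groups, with Benjamini-Hochberg adjustment over 14273 genes. The study used DESeq2, run here (1.42.0) as an alternative. The line test was fitted on the 12 tumor CM libraries with 5 residual degrees of freedom. CPM refer to the TMM-scaled library total. CPM per kb used the union of exons in GENCODE vM21, whose coordinates were identical for the 31 members. Residuals from the group means correlated with r from 0.247 to 0.406 between libraries of the same line, in all 6 pairs, so the line served as a replicate block in an alternative. Members were named where the FDR was under 0.05 and the absolute log2 fold change at least 1 in a CM effect or the difference, where the FDR for line passed, or where they were among the 4 highest or lowest of those past the FDR between cell types, provided that the mean of a group reached 1 CPM. Nrp2, Plxna1 and Plxna3 and the values given for single contrasts came from the known ligand and receptor pairs or were named after their values were seen.

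The fits were tested on simulated counts, where the line test made a somewhat larger share of false calls than its FDR states and missed most small changes. Alternatives were other scalings, no filter, only the groups compared, DESeq2, an epithelial covariate and leaving out each library. The full genotype of the tumor model is not reported here.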

Additional observations from a re-analysis of the deposited data

Results flagged for a closer look

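In 58 groups of 6 tumor CM libraries, the highest or lowest library was checked for a gap to the others, and about 1 in 20 groups passes this check by chance. Sema3g in CD26+ NFs was at 5.36 CPM in replicate 18, with CM of line 13-MCB-138, and the next library was at 2.62 CPM. Sema4f in CD26+ NFs was at 19.8 CPM in replicate 16, with CM of line 13-MCB-44, and the next library was at 10.6 CPM. The summed epithelial markers of replicate 16 were the highest of its group (1530 CPM). With the epithelial markers as a covariate Sema4f was called for the CM effect in CD26+ NFs. Whether these markers had a part in the Sema4f level of replicate 16 was not tested.

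The CM effect differed between CD26+ and CD26- NFs, by edgeR's quasi-likelihood test of the difference itself, for Nrp2 (0.83 on the log2 scale, FDR 0.00809), Plxna2 (-0.81, FDR 0.00464) and Plxnd1 (-0.55, FDR 0.0287). Nrp2 was higher in 6 of 6 CD26+ tumor CM libraries than in all CD26+ controls, and Plxna2 was lower in 6 of 6.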

How the results depend on the processing

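No called value of the 29 tested members turned its direction under the alternatives run. Over these, and without the comparisons of Plxna4 given with no test, 3471 values of single members kept their side of the threshold, 151 lost a call and 80 gained one. The untested values of Plxna4 for CD26+ over CD26- NFs moved with the epithelial covariate, to log2 2.27 in control medium and 0.78 in tumor CM. Leaving out each library in turn gave counts of members from 5 to 13 for the CM effect in CD26- NFs, 9 to 18 for that in CD26+ NFs, 16 to 18 between cell types in control medium, 21 to 23 in tumor CM and 2 to 5 for the difference in CM effect. The share of all genes ran over the same fits from 5.69% to 19.3%, 19% to 34.9%, 42.1% to 52.4%, 55.3% to 59.3% and 2.33% to 16.4%. Leaving out each line in turn gave 3 to 9 for the CM line, with 3.23% to 10.6% of all genes. Asking for a log2 fold change over 2 or under -2 beside the FDR left 0 members for both CM effects and the difference, 5 between cell types in control medium and 4 in tumor CM. The epithelial covariate gave 5 between cell types in control medium and 6 in tumor CM, with 6.66% and 8.89% of all genes called. The line as a replicate block gave 7 for the difference (17.6% of all genes) and 24 between cell types in tumor CM (63% of all genes), where it added Sema7a (-0.26, FDR 0.000289), and it was not run for the other contrasts. For the CM line, DESeq2 gave 13 members, no filter on low counts 17 and no cell type term 0 (4 at an unadjusted p under 0.05), where 10.1%, 8.33% and 0% of all genes passed against 6.56% in the model reported. Without the cell type term the difference between the cell types falls into the residual, since each line has 1 library of each. The cause of the other changes was not tested. Unscaled library sizes moved the Plxnb2 level to 53.3 CPM per kb in CD26- tumor CM and 45.6 in CD26+ controls.

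Depth limited Plxnb3 and Sema5b, which could not be tested, and Sema4a, Sema3d, Sema3b, Sema6b and Sema3g, which rest on 8 to 29, 8 to 32, 6 to 59, 18 to 91 and 7 to 93 counts per library. The line test has 5 residual degrees of freedom. No sequencing batch is given in the labels, so a batch could not be tested. Of the calls lost on leaving out a single library, 50 were lost without a control and 38 without a tumor CM library.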
